A study of Mus musculus with 23 samples.

Results

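The crypt-villus gap of a gene is the log2 difference between its counts in crypt and in villus epithelium, and its change from postnatal day 3 (P3) to day 10 (P10) is measured here. The change is the gap at P10 minus the gap at P3, so a negative value means that crypt lost ground to villus. It rests on the 12 P3 and P10 libraries of 23 in all, and 15106 genes had enough counts to be tested. The groups were crypt and villus cells at each age, with 3 libraries each. The mice were CD1, which is an outbred stock, with no genotype or treatment named, and the tissue was medial small intestine. Crypt cells were sorted as Epcam-positive and CD44-positive, and villus cells as Epcam-positive and CD44-negative. The labels do not say whether replicates were separate animals or pools, so a p-value reflects only library-to-library spread, which may be technical.

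The gut lining renews itself from crypts, where stem cells driven by Wnt signals divide and give rise to transit cells. Their daughters mature into absorptive enterocytes or secretory cells as they move onto the villus. In the newborn mouse, crypts form and deepen between the villi while the pup feeds on milk, and Paneth cells, which secrete antimicrobial peptides at the crypt base, appear during this time.

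Library totals ran from 23545159 to 34075619 counts, and each library detected between 18668 and 22099 genes. The mitochondrial genome's transcripts took up 6.14% to 11.4% of a P3 library and 2.98% to 5.18% of a P10 library. Transcript GC content, averaged over counts, was 47.1% ± 0.688 (SD, n = 3) in P3 crypt and 47.1% ± 0.563 in P3 villus, against 49.9% ± 0.131 in P10 crypt and 50.3% ± 0.0548 in P10 villus. The difference between ages was thus shared by both populations. Across 14607 genes, the P10 minus P3 difference correlated with GC content at a Spearman rho of 0.698 in crypt and 0.687 in villus, while the gap change correlated at -0.0985. Genes are not independent, so these values describe the libraries only. Epithelial markers were abundant in every library (Cdh1, which encodes E-cadherin, had 20964 to 47530 counts).

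Few or no genes passed the threshold for a change of the crypt-villus gap, and the number called depended on how library spread was modelled. With a coefficient per group and no pairing, edgeR's quasi-likelihood test called 0 of 15106 genes (0% higher and 0% lower, smallest adjusted p 0.856). At an unadjusted p under 0.05 that fit had 119 higher (0.788%) and 626 lower (4.14%). Crypt and villus libraries of equal replicate number deviated together from their group means, though weakly for P3 replicate 3 (correlation 0.282). A block for this pairing within each age also called 0 genes (smallest adjusted p 0.0557, with 332 higher, 2.2%, and 1679 lower, 11.1%, at an unadjusted p under 0.05). The block together with offsets for GC content and length, the paired, GC-adjusted fit, called 289 genes at an adjusted p under 0.05. Of these, 103 were higher (0.682% of genes tested) and 186 lower (1.23%). All 289 had the same sign in the unpaired fit, which uses the same 12 libraries. At an unadjusted p under 0.05 it had 1123 higher (7.43%) and 1444 lower (9.56%). DESeq2 without pairing called 8.

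The calls of the paired, GC-adjusted fit hung on single pairs. Both libraries of a replicate number were left out in turn, and 0 genes were called without P3 replicate 2, P10 replicate 1 or P10 replicate 2, with smallest adjusted p-values of 0.0547, 0.0516 and 0.0568. Without P3 replicate 1, P3 replicate 3 or P10 replicate 3 the counts were 329, 1439 and 151. A fit over all 23 libraries called 0 (smallest adjusted p 0.0635). In each of those 7 fits, every called gene that had a value kept its sign. The genes were chosen for large changes in libraries that these fits reuse, so the kept signs are a description and no separate support. Below, "called" refers to the paired, GC-adjusted fit, its calls carry these limits, and values after ± are standard errors.

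Most genes that marked crypt or villus at P3 did so at P10. The unpaired fit called 3225 genes higher (21.3%) and 2853 lower (18.9%) in crypt at P3, and 1899 (12.6%) and 2606 (17.3%) at P10. Of these, 4022 were called in the same direction at both ages, 66.2% of the P3 calls and 89.3% of the P10 calls. Another 3 were called in opposite directions, each from villus to crypt. The paired, GC-adjusted fit called 4846 higher (32.1%) and 4519 lower (29.9%) at P3, and 5027 (33.3%) and 3841 (25.4%) at P10, with 7665 in the same direction at both. Over the 15106 genes the P3 and P10 gaps of the unpaired fit correlated at a Pearson r of 0.861 and a Spearman rho of 0.880. In the paired, GC-adjusted fit these were 0.856 and 0.882, and all are a description over genes that share these libraries. The median gap change over all genes was -0.11 in the unpaired fit and 0.01 in the paired, GC-adjusted fit. It moved with the scaling, from -0.15 with library size alone to -0.01 with DESeq2's size factors, and list medians are therefore given beside it.

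**Figure D1:**
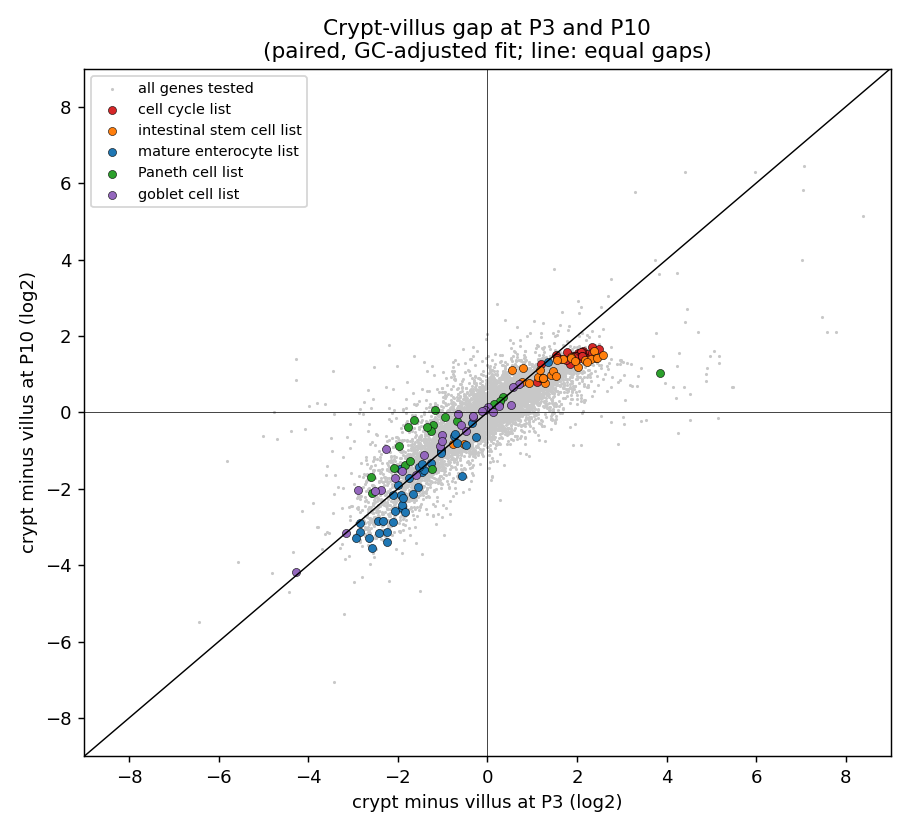
Each point is a gene, with the crypt minus villus gap at P3 on the x axis and at P10 on the y axis, both log2, from the paired, GC-adjusted fit, and colours mark 5 gene lists. On the diagonal line the gap is equal at both ages; the cell cycle list (median 2.01 at P3 and 1.47 at P10) lies below it, with 1 exception, on the crypt side, and most of the Paneth cell list (median -1.26 and -0.38) lies above it on the villus side.

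The 289 called changes were mostly gaps that became smaller. Over all genes tested, gaps were also smaller at P10, with a median size of 0.51 at P3 and 0.42 at P10 in this fit. An excess in crypt at P3 was smaller at P10 for 131 genes and had turned into a villus excess for 19. An excess in villus was smaller for 68, had turned into a crypt excess for 35 and was larger for 36. These kinds go by the sign of the fitted gaps. Both gaps were themselves called for 4 of the 19 and for 14 of the 35 that turned. An excess in crypt was larger at P10 for 0 of the called genes. For 278 of the 289 the 3 pair gaps of P10 did not overlap those of P3, which choosing genes by these same values favours. Among all genes tested, the P10 pair gaps lay above all P3 pair gaps for 615 (4.07%) and below them for 2271 (15%).

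Genes of cell division had a smaller crypt excess at P10 than at P3. Of 43 genes on a cell cycle list, 12 fell (27.9%, beside 1.23% of all genes) and 0 rose. The median gap change was -0.52, and 42 of 43 lay below 0. Over the 4846 genes called higher in crypt at P3 the median was -0.17, though the P3 gap itself chose those genes. All 43 were called higher in crypt at both ages, with a median gap of 2.01 at P3 and 1.47 at P10. Leaving out either P3 replicate 2, P10 replicate 1 or P10 replicate 2 removed all 12 calls, with medians of -0.46, -0.45 and -0.48. Over the 12 versions of this fit the median ranged from -0.62 to -0.45, and over the 25 that started from the unpaired fit from -0.73 to -0.45.

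Among the called cell cycle genes the largest change was that of Plk1, the kinase that drives entry into and passage through mitosis. Its levels in CPM, a count scaled to a common library total with TMM factors, were 50.9, 29.9 and 38.1 in P3 crypt, 8.14, 4.92 and 8.05 in P3 villus, 87.3, 93.3 and 84.1 in P10 crypt, and 33.8, 35.4 and 25.0 in P10 villus. P10 crypt was the highest group and P3 villus the lowest, with no overlap between crypt and villus at either age. The Plk1 gap was 2.49 ± 0.10 at P3 and 1.66 ± 0.09 at P10, a fall of the gap by 0.83 ± 0.13 (adjusted p 0.0218). The P10 minus P3 difference in level was 2.15 in villus-sorted and 1.15 in crypt-sorted cells in the unpaired fit, and 1.26 and 0.43 with GC offsets. CPM compared across ages, here and below, holds the GC difference between the ages. In bulk samples, fewer cells of a type and less RNA per cell cannot be told apart.

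The other called members named by the rule fell by similar amounts. They were Kif2c, a kinesin that frees chromosomes from wrongly attached microtubules, with a gap change of -0.80 ± 0.13, Bub1b, a spindle checkpoint kinase, with -0.67 ± 0.11, and Tpx2, a spindle assembly factor, with -0.65 ± 0.11. Each had an adjusted p of 0.0218 to 0.0247 by edgeR's quasi-likelihood test. Mki67 and Top2a, the common proliferation marker and the topoisomerase of dividing cells, had gap changes of -0.37 ± 0.17 and -0.47 ± 0.14 and were not called (adjusted p 0.286 and 0.106). DNA replication genes had 4 falls (13.3%, beside 1.23% of all genes) and 0 rises among 30, with a median of -0.36. The falls were those of Mcm5 (-0.66 ± 0.13), Mcm4 (-0.62 ± 0.09) and Mcm3 (-0.59 ± 0.12), subunits of the replicative helicase, and Pola1 (-0.56 ± 0.11), the catalytic subunit of DNA polymerase alpha. Of 26 ribosome biogenesis genes 1 fell (3.85%, beside 1.23% of all genes). It was Dkc1, which modifies ribosomal RNA, with a fall of 0.57 ± 0.11.

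Because the cell cycle genes moved together, the promoters of the named members with a single start site in RefSeq are shown, from build GRCm38.p6. Each is the 250 bases before the start, 5′ to 3′ on the gene's strand. Capitals mark CCAAT, the box that is known to bind the factor NF-Y, read on the other strand as ATTGG. They also mark the core of the cell cycle homology region, TTTGAA, which on the other strand reads TTCAAA. The Plk1 window lies at chr7:122159185-122159434 (+ strand), that of Kif2c at chr4:117178773-117179022 (- strand) and that of Bub1b at chr2:118597961-118598210 (+ strand).
Plk1: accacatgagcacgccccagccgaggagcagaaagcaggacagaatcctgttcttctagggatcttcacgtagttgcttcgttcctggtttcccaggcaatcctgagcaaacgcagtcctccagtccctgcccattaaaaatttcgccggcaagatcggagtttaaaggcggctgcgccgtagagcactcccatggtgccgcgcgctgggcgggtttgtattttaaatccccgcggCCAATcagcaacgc
Kif2c: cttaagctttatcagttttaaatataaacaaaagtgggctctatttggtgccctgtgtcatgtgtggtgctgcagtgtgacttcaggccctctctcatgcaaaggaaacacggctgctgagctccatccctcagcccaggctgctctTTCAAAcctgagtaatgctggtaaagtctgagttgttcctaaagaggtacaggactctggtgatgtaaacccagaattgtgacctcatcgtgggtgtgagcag
Bub1b: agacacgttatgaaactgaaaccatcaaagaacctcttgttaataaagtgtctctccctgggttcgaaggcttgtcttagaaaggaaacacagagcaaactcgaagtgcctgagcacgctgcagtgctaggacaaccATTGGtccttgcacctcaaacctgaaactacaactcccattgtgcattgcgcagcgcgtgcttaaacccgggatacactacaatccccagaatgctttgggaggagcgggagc
The Plk1 window holds CCAAT once near its 3′ end, the Bub1b window holds ATTGG once, and the Kif2c window holds TTCAAA once. RefSeq windows matched 34 of the 43 cell cycle genes, with 36 windows. Of these, 29 (80.6%) held CCAAT or ATTGG and 15 (41.7%) held TTTGAA or TTCAAA, on either strand. Among all 32851 windows the shares were 33.8% and 16%, and among the 13529 windows of tested genes 35.1% and 10.7%. DNA replication genes had 54.8% and 9.68% of 31 windows, and intestinal stem cell genes 33.3% and 3.7% of 27. The cell cycle genes called lower had 80% and 40% of 10 windows, close to the whole list. The part of these motifs in the gap changes was not tested. A match is a string of letters, and binding was not measured.

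**Figure D2:**
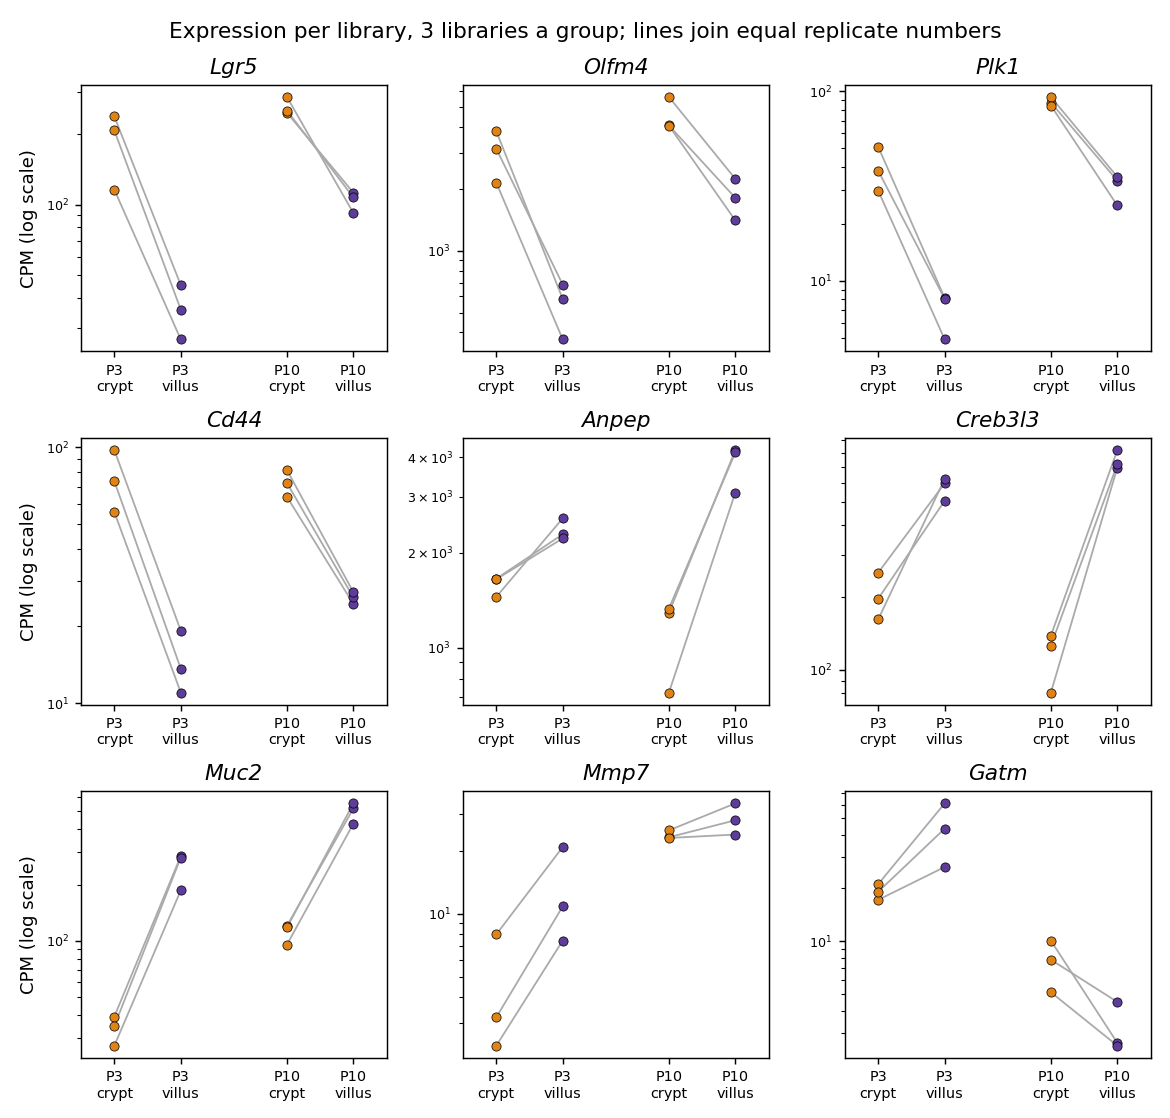
CPM on a log scale in every library for 9 genes, with crypt in orange and villus in purple, and lines joining crypt and villus libraries of equal replicate number. For Lgr5, Olfm4, Plk1 and Cd44 the lines drop less steeply at P10 than at P3, for Anpep and Creb3l3 they climb more steeply, for Muc2 and Mmp7 they climb less, and for Gatm they change direction.

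Stem cell markers of the intestine also had a smaller crypt excess at P10. Of 28 tested, 8 fell (28.6%, beside 1.23% of all genes) and 0 rose: Lgr5, Olfm4, Smoc2, Clca3b, Prom1, Cdca7, Slc12a2 and Cd44. The median gap change was -0.41, beside -0.17 over all genes called higher in crypt at P3. The median gap was 1.51 at P3 and 1.14 at P10. All 8 calls were lost without P3 replicate 2, P10 replicate 1 or P10 replicate 2 (medians -0.34, -0.32 and -0.37). Lgr5, the R-spondin receptor that marks dividing stem cells, had 116, 206 and 237 CPM in P3 crypt and 26.7, 35.8 and 45.5 in P3 villus. At P10 it had 245, 250 and 286 CPM in crypt and 112, 107 and 92.0 in villus. Every P10 villus library thus exceeded every P3 villus library, and every P10 crypt library exceeded every P3 crypt library, by a smaller margin. The Lgr5 gap went from 2.32 to 1.41, a change of -0.91 ± 0.14 (adjusted p 0.0218, and -1.05 to -0.81 over the 6 fits that leave out a pair).

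Olfm4, a secreted glycoprotein made in large amounts by stem cells, was among the 12 largest falls of all. It had 2149, 3828 and 3144 CPM in P3 crypt, 370, 582 and 684 in P3 villus, 4084, 5619 and 4075 in P10 crypt, and 1811, 2243 and 1406 in P10 villus. Its gap went from 2.45 to 1.43, a change of -1.02 ± 0.16 (adjusted p 0.0218). P10 villus stood well above P3 villus with no overlap. Smoc2, a matricellular protein of stem cells, changed by -0.89 ± 0.14, and Clca3b, a member of the calcium-activated chloride channel regulator family, by -0.99 ± 0.15. Sox9, a transcription factor of the crypt base, changed by -0.33 ± 0.14 and was not called (adjusted p 0.244).

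Cd44, which encodes the CD44 protein used for sorting, lost part of its gap too. It had 55.8, 73.8 and 97.5 CPM in P3 crypt and 10.998, 13.6 and 19.2 in P3 villus, then 64.1, 72.6 and 81.5 in P10 crypt and 24.4, 25.9 and 27.1 in P10 villus. Crypt levels overlapped between the ages, and the P10 villus libraries were all above the P3 villus libraries. The Cd44 gap went from 2.37 to 1.60, a change of -0.77 ± 0.10 (adjusted p 0.0150, and -0.80 to -0.73 over the 6 fits that leave out a pair). Its gap thus moved with the cell cycle and stem cell lists, and the part of the sort in their results was not tested. Epcam, the other sorted protein, had gaps of 0.33 and 0.36 and was not called.

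Among 19 Wnt targets 2 fell (10.5%, beside 1.23% of all genes), with a median of -0.30. They were Lgr5 and Cd44, both also on the stem cell list. Of 19 Notch pathway genes 0 were called, with a median of 0.07. Among intestinal transcription factors, Myb, needed for proliferating progenitors, changed by -0.65 ± 0.12 on the crypt side, and Creb3l3, described with the enterocyte genes, changed on the villus side.

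On the villus side, a few enterocyte genes had a larger villus excess at P10. Anpep, the brush border aminopeptidase N, had 1654, 1648 and 1450 CPM in P3 crypt against 2286, 2218 and 2567 in P3 villus. At P10 it had 723, 1293 and 1332 in crypt against 3097, 4215 and 4145 in villus. Villus was above crypt at both ages without overlap, and P10 crypt replicate 1 was the lowest of the 12. The Anpep gap went from -0.57 to -1.67, a change of -1.11 ± 0.13 (adjusted p 0.0114).

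Creb3l3, a membrane-bound transcription factor of lipid metabolism in liver and gut, showed the same pattern. It had 254, 198 and 162 CPM in P3 crypt, 597, 505 and 622 in P3 villus, 80.5, 126 and 139 in P10 crypt, and 693, 715 and 819 in P10 villus. P10 crypt was the lowest group and P10 villus the highest in CPM, but the P10 minus P3 difference in villus turned from 0.37 to -0.66 with GC offsets. Its gap went from -1.52 to -2.56, a change of -1.04 ± 0.15 (adjusted p 0.0167). Without pairing it was -1.20 ± 0.30 (adjusted p 0.856).

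As a group the mature enterocyte genes did not move so uniformly. Of 39 tested 2 fell (5.13%, beside 1.23% of all genes) and 0 rose. The 2 were Anpep and the peptide transporter Slc15a1 (-0.77 ± 0.16). The median was -0.29, with 29 of 39 below 0, and it ranged from -0.45 without P3 replicate 3 to -0.07 without P3 replicate 1. At each age, 38 of the 39 were called higher in villus. Fabp1, the abundant cytosolic fatty acid binding protein, had a gap of -2.57 at P3 and -3.55 at P10 but was not called (-0.98 ± 0.43, adjusted p 0.295). Alpi, the brush border phosphatase, changed by -0.58 ± 0.19 (adjusted p 0.154) and Vil1, which bundles microvillar actin, by -0.12 ± 0.11 (adjusted p 0.623).

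Lipid absorption genes split in direction, with a median of -0.27. Among 29 there were 3 rises (10.3%, beside 0.682% of all genes) and 2 falls (6.9%, beside 1.23%). Mogat2, which rebuilds triglyceride from absorbed monoglyceride, fell by 0.84 ± 0.16, and Dgat2, which completes that step, was the other fall. Scarb1, a lipoprotein and lipid receptor, rose by 0.81 ± 0.16, Clps, the lipase cofactor colipase, by 0.87 ± 0.16, and Pnliprp2, a milk fat lipase, by 0.89 ± 0.19. For Clps and Pnliprp2 a villus excess at P3 became smaller. The apolipoprotein genes Apoa4 and Apob had changes of -0.73 ± 0.36 and -0.52 ± 0.14 and were not called (adjusted p 0.363 and 0.0889). All these calls were lost without P3 replicate 2, P10 replicate 1 or P10 replicate 2.

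Enterocyte genes tied to milk feeding or weaning are described next. Lct, the milk sugar enzyme lactase, had gaps of -2.24 and -3.13 and was not called (-0.89 ± 0.30, adjusted p 0.187). Of 12 adult-type genes 0 were called, and Sis, which splits sucrose, changed by 0.48 ± 0.20 (adjusted p 0.249). Endocytosis and lysosome genes had 0 calls among 39 and a median of 0.12, with Ctsb, a lysosomal protease, at 0.34 ± 0.12 (adjusted p 0.174). Metabolic and transport lists had 1 or 2 calls each. Falls were 1 of 25 fatty acid oxidation genes (4%), 1 of 25 cholesterol synthesis genes (4%) and 2 of 39 solute transporters (5.13%), beside 1.23% of all genes. Xenobiotic and retinoid metabolism had 1 rise among 29 (3.45%, beside 0.682% of all genes). Pdk4, which restrains glucose oxidation, fell by 0.76 ± 0.13, the sterol enzyme gene Sqle by 0.44 ± 0.10 and the anion exchanger gene Slc26a6 by 0.84 ± 0.13, and the glutathione transferase gene Gsta4 rose by 1.23 ± 0.25.

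Paneth cell genes had a smaller villus excess at P10. Of 19 tested, 5 rose (26.3%, beside 0.682% of all genes) and 0 fell. The list's median gap change was 0.62, with 17 of 19 above 0, beside 0.14 over all genes called higher in villus at P3. The median ranged from 0.53 to 0.72 over the 12 versions of this fit, and no call was left without P3 replicate 2, P10 replicate 1 or P10 replicate 2. The 5 were Mmp7, Defa17, Defa24, Reg4 and Nupr1. The median gap of the list was -1.26 at P3 and -0.38 at P10, and 10 of 19 were still called higher in villus at P10, against 12 at P3.

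Mmp7, the protease that activates Paneth cell defensins, had 2.34, 7.96 and 3.20 CPM in P3 crypt and 7.43, 20.8 and 10.8 in P3 villus. At P10 it had 23.2, 25.0 and 22.996 in crypt and 27.9, 33.6 and 23.9 in villus. Villus was higher within each replicate number at both ages, with pair gaps of -0.27, -0.43 and -0.05 at P10, where the groups overlapped. The Mmp7 gap went from -1.64 to -0.19, a change of 1.45 ± 0.15 (adjusted p 0.00529). The defensin genes Defa17 and Defa24 rose by 0.87 ± 0.14 and 0.77 ± 0.14, but defensins are near-identical copies among which the authors' counting could split reads. Lyz1, Paneth cell lysozyme, had 5.59 to 16.5 CPM over the P3 libraries and 159 to 427 over the P10 libraries. Its gap change of 0.82 ± 0.35 was not called (adjusted p 0.292).

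Goblet cell genes had 2 rises (7.69%, beside 0.682% of all genes) and 0 falls among 26. Their median was 0.19, beside 0.14 over all genes called higher in villus at P3. Muc2, the main secreted mucin, had 39.2, 27.3 and 34.9 CPM in P3 crypt and 286, 187 and 281 in P3 villus, then 95.7, 121 and 118 in P10 crypt and 429, 518 and 552 in P10 villus. The 4 groups did not overlap. Its villus excess shrank from -2.88 to -2.02, a change of 0.86 ± 0.10 (adjusted p 0.00874, and 0.80 to 0.90 over the 6 fits that leave out a pair). Retnlb, a goblet cell antimicrobial, ran from 5.62 to 152 CPM within P3 crypt alone, and its rise of 1.29 ± 0.25 rests on the pairing (0.97 ± 1.44 without it). Fcgbp, a mucus protein, changed by 0.46 ± 0.15 (adjusted p 0.148).

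Enteroendocrine genes had 1 rise among 31 (3.23%, beside 0.682% of all genes) and a median of 0.06. It was Nts, the gut peptide neurotensin, with 43.9, 27.2 and 24.2 CPM in P3 crypt, 540, 555 and 292 in P3 villus, 52.8, 15.97 and 26.4 in P10 crypt, and 234, 83.9 and 179 in P10 villus. Villus was higher than crypt at both ages, and P10 villus was below P3 villus in every library in CPM. With GC offsets that difference in villus was -0.49 against -1.48 without them, and in crypt it was 1.002 against -0.00. The Nts gap went from -3.89 to -2.38, a change of 1.503 ± 0.26 (adjusted p 0.0343). Gip, the incretin peptide, had a crypt excess of 4.23 and 3.65 and was not called, nor was the granule protein gene Chga (-0.12 ± 0.26). Tuft cell genes had 0 calls among 8.

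Among genes whose mean log2 CPM reached 3, the largest rise was that of Gatm, the first enzyme of creatine synthesis. It had 17.2, 21.2 and 19.1 CPM in P3 crypt, 26.4, 60.9 and 43.7 in P3 villus, 10.1, 5.12 and 7.85 in P10 crypt, and 2.64, 2.54 and 4.51 in P10 villus. Villus was the higher population in each pair at P3 and the lower one in each pair at P10. The Gatm gap went from -1.24 to 1.22, a change of 2.47 ± 0.36 (adjusted p 0.0237), and DESeq2 called it without pairing (2.54, adjusted p 0.000647).

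Sord, which turns sorbitol into fructose, lost a villus excess altogether. It had 71.9, 55.1 and 75.9 CPM in P3 crypt and 136, 108 and 146 in P3 villus, but 60.1, 47.1 and 59.2 in P10 crypt and 48.0, 48.0 and 63.9 in P10 villus. P3 villus stood above the other 3 groups, which overlapped. The Sord gap change was 1.11 ± 0.12 (adjusted p 0.00529). Itpr1, an intracellular calcium release channel, rose by 1.06 ± 0.17. The rest of the 12 largest rises, from 1.04 to 1.28, were Cttnbp2, Slc43a3, Fam213a, Prkar2b (a regulatory subunit of protein kinase A), Arhgef28 and Phka1 (a subunit of phosphorylase kinase), beside Nts, Mmp7 and Retnlb above.

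Falls of similar size were spread over both sides. Ctrb1, a chymotrypsinogen best known from the pancreas, fell by 1.38 ± 0.27, from 20.1 to 59.3 CPM in P3 villus to 136 to 311 in P10 villus. Of the other pancreatic enzyme genes, Cpa1, Prss2, Cela2a and Pnlip had 0 counts in all 6 P10 libraries, while Cela1 had 86 to 138. At P3, villus replicate 3 held 24 counts of Cpa1 and 36 of Prss2, against 5 or fewer in each other library. Their part in the Ctrb1 value was not tested, and without P3 replicate 3 the Ctrb1 change was -1.57 and was not called (adjusted p 0.0786). Egln3, an oxygen-sensing hydroxylase, fell by 1.06 ± 0.11 to a larger villus excess, and Tppp, a tubulin-binding protein, by 1.19 ± 0.20 from a crypt to a villus excess. The Tppp gap of -0.25 at P10 was not itself called (adjusted p 0.142). Angptl4, a lipase inhibitor, and Adgre5, an adhesion receptor, lost crypt excess (-1.002 ± 0.18 and -0.99 ± 0.14), while Prrx1, a homeobox gene, and Prss30, a serine protease, gained villus excess (-1.001 ± 0.19 and -0.99 ± 0.16).

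**Figure D3:**
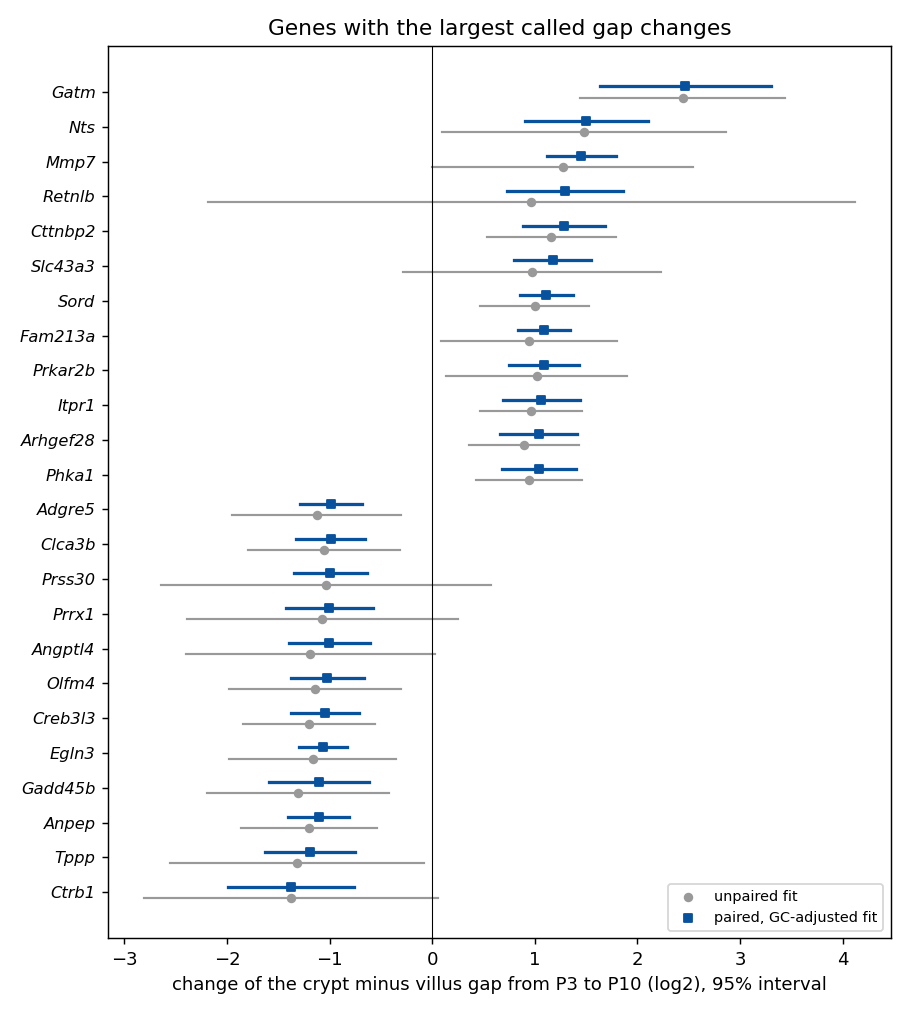
The gap change from P3 to P10 (log2, x axis) with 95% intervals for the 12 largest rises and the 12 largest falls, in the paired, GC-adjusted fit (squares) and in the unpaired fit (circles). The paired intervals all lie on one side of 0, and those of the unpaired fit are wider and include 0 for some genes, such as Retnlb (-2.19 to 4.12).

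DESeq2 without pairing called 6 rises and 2 falls, of which 7 were also called in the paired, GC-adjusted fit. Beside Gatm, Sord and Itpr1 the rises were Fstl4 (2.73 ± 0.49 in the paired, GC-adjusted fit), Plce1, a phospholipase (1.56 ± 0.20), and Nav2, a cytoskeletal regulator (0.75 ± 0.12). The falls were Mboat1, a lysophospholipid acyltransferase (-0.68 ± 0.11), and Pcdh8, a protocadherin, which was not called with pairing (-0.94 ± 0.24, adjusted p 0.0872).

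Lists of stress, defence and tissue architecture gave 3 calls or fewer each. Immediate early and stress genes had 3 falls among 28 (10.7%, beside 1.23% of all genes) and a median of -0.26. Gadd45b, a growth arrest and DNA damage gene, went from a gap of 0.98 to -0.13, Junb, an AP-1 subunit, from 0.56 to -0.20, and Atf3, a stress-induced factor, from 0.08 to -0.53. Such genes respond to tissue handling, and the part of cell dissociation in these values was not tested. The interferon list had 1 rise among 36 (2.78%, beside 0.682% of all genes). It was Irf9, which carries interferon signals to the nucleus (0.44 ± 0.09), with Ifit1 uncalled at -0.79 ± 0.22 (adjusted p 0.108).

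Basement membrane and hemidesmosome genes had 1 rise among 29 (3.45%, beside 0.682% of all genes). It was Lama5, the alpha chain of adult-type epithelial laminin, which turned from a villus to a crypt excess (-1.01 to 0.54). Its level was low at P3, from 0.341 to 1.56 CPM, and 5.73 to 9.42 CPM at P10. Among adhesion and motility genes fixed for naming, Itga6, Itgb4, Rac1 and Myh9 had gap changes of -0.17, 0.17, 0.13 and -0.00, and 0 of the 4 were called. Cldn4, a tight junction claudin, turned from a gap of 0.44 to -0.27, and Smo, the Hedgehog signal transducer, fell by 0.65 ± 0.14. Cell junction genes had 1 fall among 31 (3.23%) and BMP and Hedgehog genes 1 among 21 (4.76%), beside 1.23% of all genes. The 7 tested mitochondrially encoded genes had 0 calls, and all lay above 0 with a median of 0.31 (mt-Co1 0.43 ± 0.13).

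Markers of other cells that the gate could hold were low, and some moved with age. Of 27 immune cell genes 14 passed the count filter and 0 were called, with a median gap of 2.42 at P3 and 0.79 at P10. The summed level of the list was 80.6 to 163 CPM in P3 crypt, 64.9 to 95.3 in P3 villus, 52.7 to 68.8 in P10 crypt and 48.9 to 72.7 in P10 villus. These sums include Csf1r, which was higher in villus. It had 929 counts over P3 crypt, 5290 over P3 villus, 435 over P10 crypt and 2324 over P10 villus. Of the 14 genes, 13 had a gap called higher in crypt at P3 and 1 higher in villus, against 7 and 1 at P10. Ptprc, the pan-leukocyte surface phosphatase, had 132 counts over P3 crypt, 18 over P3 villus, 36 over P10 crypt and 18 over P10 villus (-1.71 ± 0.64, adjusted p 0.198). Mcpt1 and Mcpt2, mast cell proteases, had 2776 and 2509 counts over P3 crypt, 446 and 211 over P10 crypt, and 3 to 25 over each villus group. Their part in the gap changes above was not tested.

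Markers of further cell types gave 1 call outside the pancreas list. The 11 tested mesenchyme genes had 0 calls, and Col3a1, a fibrillar collagen, had 18 to 260 counts per P3 crypt library and a gap change of -0.07. The endothelial genes Emcn and Sox17 had 0 counts in all 12 libraries, and the glial factor gene Sox10 had 0 in 11 of them. Tfrc, the transferrin receptor listed under erythroid cells but made by dividing cells in general, fell by 0.52 ± 0.10. The erythroid list and the pancreas list each had 1 call among 4 tested genes (25%, beside 1.23% of all genes). With so few genes tested, these shares describe single genes only. Haemoglobin genes were near 0, with Hba-a1 at 13 counts or fewer in each library.

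How large a change could have gone unseen depends on expression. In the unpaired fit the 95% interval of the gap change lay within -1 to 1 for 8134 genes (53.8%), and for 7453 of the 9473 genes whose mean log2 CPM reached 3. In the paired, GC-adjusted fit this held for 10970 (72.6%) and for 9164 of 9473. For these better measured genes the median standard error was 0.24 unpaired and 0.12 paired.

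**Figure D4:**
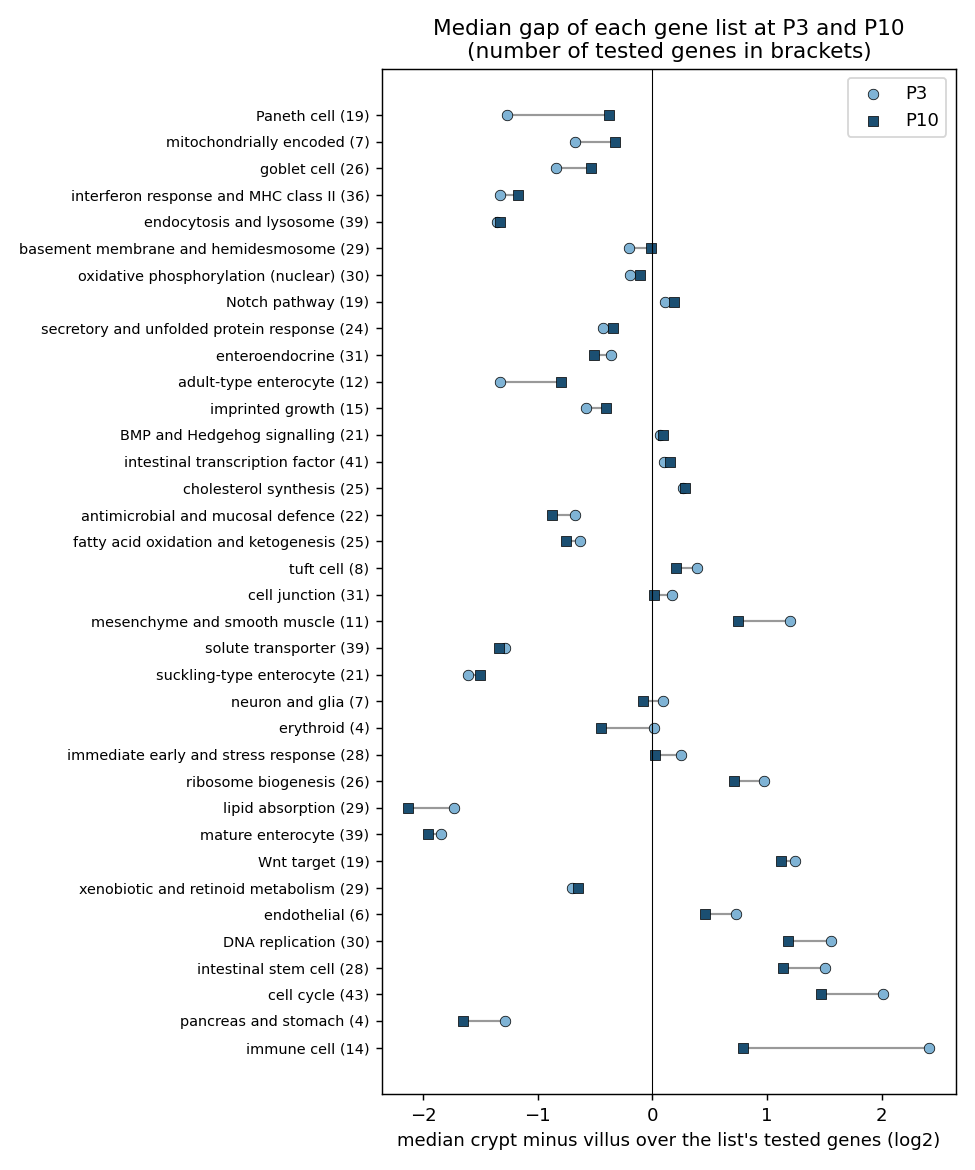
Median crypt minus villus gap (log2, x axis) of the tested genes of each of the 36 lists at P3 (circles) and P10 (squares), from the paired, GC-adjusted fit, ordered by the median gap change. The cell cycle, stem cell and DNA replication medians move towards 0 from the crypt side, the Paneth and goblet cell medians move towards 0 from the villus side, and the lipid absorption median moves away from 0.

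The P6 libraries entered above only where all 23 libraries were fitted. In such a paired, GC-adjusted fit over all 23 libraries the P6 gap lay between the P3 and P10 gaps for 23 of the 24 genes of the largest changes and for 272 of the 289 called genes (94.1%). Over all 15106 genes it did so for 5441 (36.0%). The called genes were chosen for distance between their P3 and P10 gaps, which widens the room between them, so these shares are a description.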

How the data were processed

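Epithelium of the medial small intestine was loosened with EDTA and sorted, and stranded poly(A) libraries were made from it, per the labels' protocols. The deposited values are whole counts of reads per gene that the authors made with Trim Galore, STAR, HTSeq and build mm9, per the submitters' processing notes, which give no versions. The 5 summary lines of each library were left out. The line for reads outside genes alone held 7.62% to 13.3% of each library's total. The 12 libraries hold 23545159 to 34075619 counts, so counting error is small beside the spread between libraries for all but low genes.

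Genes were filtered with filterByExpr (minimum count 10, minimum total 15), scaled by TMM and tested with edgeR 4.0.16 in R 4.3.3, by its quasi-likelihood test with Benjamini-Hochberg adjustment, at an adjusted p under 0.05. The design set out first had a coefficient per group and no pairing (8 residual degrees of freedom). It and the replicate block within age called 0 gap changes, so the genes described come from the block with GC and length offsets (splines with 5 degrees of freedom on GENCODE M21 transcripts, available for 96.7% of genes, 4 residual degrees of freedom). That fit was listed as an alternative, and resting the text on it was decided once the other fits' counts were known. Libraries of equal number deviated together (correlations 0.447, 0.696 and 0.282 at P3, and 0.670, 0.606 and 0.645 at P10). Of unequal numbers, P3 crypt 1 with villus 3 reached 0.266, close to the lowest of these. All others were negative (-0.570 to -0.080 at P3 and -0.414 to -0.188 at P10). The correlations were taken without GC adjustment, and the part of GC content in them was not tested. The pairing comes from this check and not from the labels. Alternatives were DESeq2 1.42.0, limma 3.58.1 (voom), other scalings and filters, thinned counts, all 23 libraries and leaving out libraries. The fits were also run on simulated counts, drawn independently for each library around group means. These held no pairing and no GC difference between replicates, so they cannot check the block with GC offsets.

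Named genes were 20 fixed symbols, the 12 largest called rises and 12 largest falls among genes whose mean log2 CPM reached 3, and up to 4 called and 2 uncalled members of each list. The rule named the replicate block as the source where few genes were called, and since that called none, the GC-adjusted block was used. The 8 genes called by DESeq2, and Dgat2, Prom1, Cdca7, Slc12a2, the marker genes given as counts and the promoter motifs, were chosen after their values were seen. The members and lists were chosen with earlier results of these data known. Some results on transcription factors and suckling-type genes are not reported here.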

Additional observations from a re-analysis of the deposited data

Results flagged for a closer look

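For 6 genes, the crypt minus villus difference of log2 CPM lay on one side of 0 in all 3 P3 pairs and on the other side in all 3 P10 pairs. The unpaired edgeR fit called none of them, and each lost its call in the paired, GC-adjusted fit in at least 3 of the 6 fits that leave out a pair. Gatm had pair gaps of -0.62, -1.52 and -1.19 at P3 and 1.90, 0.99 and 0.79 at P10, with a fitted gap change of 2.47. For Fstl4 they were -1.20, -1.23 and -1.22, then 0.62, 1.69 and 1.07, with a change of 2.73 on levels under 1 CPM at P3. Plce1 changed by 1.56, Lama5 by 1.55 and Itpr1 by 1.06, each from villus to crypt, and one P10 pair of Itpr1 lay at 0.02. Tppp changed by -1.19, from crypt to villus, with 0.81, 0.70 and 1.15 at P3 and -0.42, -0.60 and -0.25 at P10.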

How the results depend on the processing

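The gap change had 0 calls in the unpaired fit and under every other scaling, filter, thinning, limma-voom, GC offsets alone and each of the 12 left-out libraries. DESeq2 called 8. With the replicate block the count was 0, and with the block and GC offsets 289. With the block, P10 calls went from 4505 to 7183, and with block and GC offsets to 8868, while P3 calls went from 6078 to 9365. Leaving out a library gave 4564 to 6089 at P3 and 3024 to 5039 at P10. The paired, GC-adjusted count ran from 0 to 1439 over the left-out pairs: 329, 0 and 1439 without P3 replicate 1, 2 or 3, and 0, 0 and 151 without P10 replicate 1, 2 or 3. With all 23 libraries it was 0, and with other scalings or trends 275 to 305. With library size alone, 75.5% of P3 calls and 70.4% of P10 calls were higher in crypt, against 53.1% and 42.15% with TMM. The causes were not tested.

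Signs turned for genes near 0, none of them called in the gap change unless stated. Epcam (-0.16 unpaired) was 0.020 with GC offsets, 0.023 with these and the block, and -0.19 to 0.011 over left-out libraries. Col3a1 (-0.08) was 0.028 with DESeq2's size factors, 0.056 with DESeq2, 0.074 with all 23 libraries, 0.058 with GC offsets and 0.075 without mitochondrial genes, and -1.08 to 1.07 over left-out libraries. With library size alone Itgb4 was -0.0082 and Rac1 -0.027, and over left-out libraries -0.13 to 0.37 and -0.011 to 0.18. Myh9 was 0.0069 with all 23 libraries and 0.0088 without mitochondrial genes, and -0.21 to 0.078 over left-out libraries. Chga ran from -0.57 to 0.10, and Atf3, called with pairing, from -1.80 to 0.70. In the paired, GC-adjusted fit with a pair left out, Epcam ran from -0.19 to 0.24 (-0.011 without P10 replicate 1), Chga from -0.30 to 0.21 (0.014 without P10 replicate 2), Col3a1 from -0.76 to 0.83 (0.52 without P3 replicate 1) and Myh9 from -0.043 to 0.054 (0.023 without P10 replicate 1). Myh9 was 0.00038 with DESeq2's size factors. Single gaps that turned were 0.14 for Lyz1, 0.13 for Phka1 and 0.025 for Gadd45b at P10, and 0.019 for Scarb1 and -0.0060 for Atf3 at P3.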
